A study of Mus musculus with 16 samples.

Results

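Serpins are a family of proteins named for their protease inhibitors, and 47 serpin genes were measured among 20551 gene symbols on the array (36824 features in all, with and without a symbol). The 47 were all genes whose symbol on the array is Serpin followed by a clade letter from a to i and a number, with probes of 1 symbol averaged, and they came from 49 probes. Serpina1a and Serpinh1 had more than 1 probe. By clade, 17 belonged to clade a, 21 to clade b, 2 each to clades f and i, and 1 each to clades c, d, e, g and h. A further 5 serpin genes, Serpina1f, Serpina3b, Serpina3f, Serpina16 and Serpine3, carry older clone names on the array and were not members by the rule.

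An inhibitory serpin offers a protease a bait loop, is cut, and traps the protease in a complex from which neither protein is recovered. The liver secretes many serpins of the plasma, which restrain neutrophil elastase, clotting enzymes, plasmin and the first enzymes of the complement cascade. Some members inhibit nothing: they carry steroid or thyroid hormones, or help collagen to fold. Clade b serpins lie mostly inside cells, and some of them protect cells from their own granule proteases. Several plasma serpins are known as acute phase proteins, whose synthesis in hepatocytes rises after infection or injury under interleukin-6 and related signals.

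RNA was taken from whole livers of 8 male Lpl+/- mice, heterozygous for a knockout allele of the lipoprotein lipase gene, and 8 male wild type littermates. All mice had a chow diet, and age and strain are not given in the sources used here. Each liver was set on a 2-colour array against 1 pool made from the livers of 9 wild type mice, with 1 array column per mouse. The deposited values are log ratios, taken as log10 and as mouse over pool, a likely direction.

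A value of 0 therefore means the level of the pool, and values of different genes do not tell which gene is expressed more. Hepatocyte markers as well were measured only against other liver, so the labelled tissue could not be checked in this way. In whole tissue, fewer cells of a type and less RNA per cell cannot be told apart. Array medians lay between -0.0045 and 0.0072. At the limit of the scale, 2 or -2, stood 88 values in Lpl+/- 3, 52 in wild type 4, 28 in Lpl+/- 8 and at most 18 in any other array. The arrays of wild type 5 and wild type 8 correlated negatively over all probes (r = -0.352), the lowest of 120 pairs. Close behind were wild type 4 with wild type 8 (-0.294) and wild type 5 with Lpl+/- 4 (-0.287). On the acute phase score described below, wild type 5 was the lowest mouse (-0.490) and wild type 8 the second highest (0.113). The sources do not settle which way these arrays run, so results are also given with their signs turned. The Serpina1, Serpina3, Serpinb1 and Serpinb9 genes have close paralogs, and the probe sequences were not used here, so signal shared between paralogs of 1 family cannot be told apart.

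By their median, serpin genes of clade a varied more between livers than most genes on the array. The SD over the 16 mice had a median of 0.131 in clade a, 0.0609 in clade b and 0.0420 over all features. Not every clade a gene varied so, with Serpina3c, Serpina5 and Serpina1b at percentiles 15.5, 33.6 and 43.2 of all features. Serpina3k, an antichymotrypsin gene of mouse liver, varied most among the 47 (SD 0.228, at the 98.5th percentile of all features). It was followed by Serpina12, which encodes vaspin, a serpin known from adipose tissue (SD 0.199), and by Serpinb1a (SD 0.198). Serpinb1a encodes an inhibitor of neutrophil elastase. Serpina12 was lowest in wild type 4 (-0.476), Lpl+/- 3 (-0.424) and Lpl+/- 8 (-0.324), with wild type 2 next (-0.292). Apart from wild type 2, these arrays also reached the scale limits most often (52, 88 and 28 values). Their part in the spread of Serpina12 was not tested. Serpina10, which encodes the protein Z-dependent inhibitor of clotting factor Xa, had an SD of 0.188. At the other end stood Serpinb9c, of a family related to the granzyme B inhibitor Serpinb9 (SD 0.0158). These spreads hold technical and biological variation together, and they are a description with no test.

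**Figure D1:**
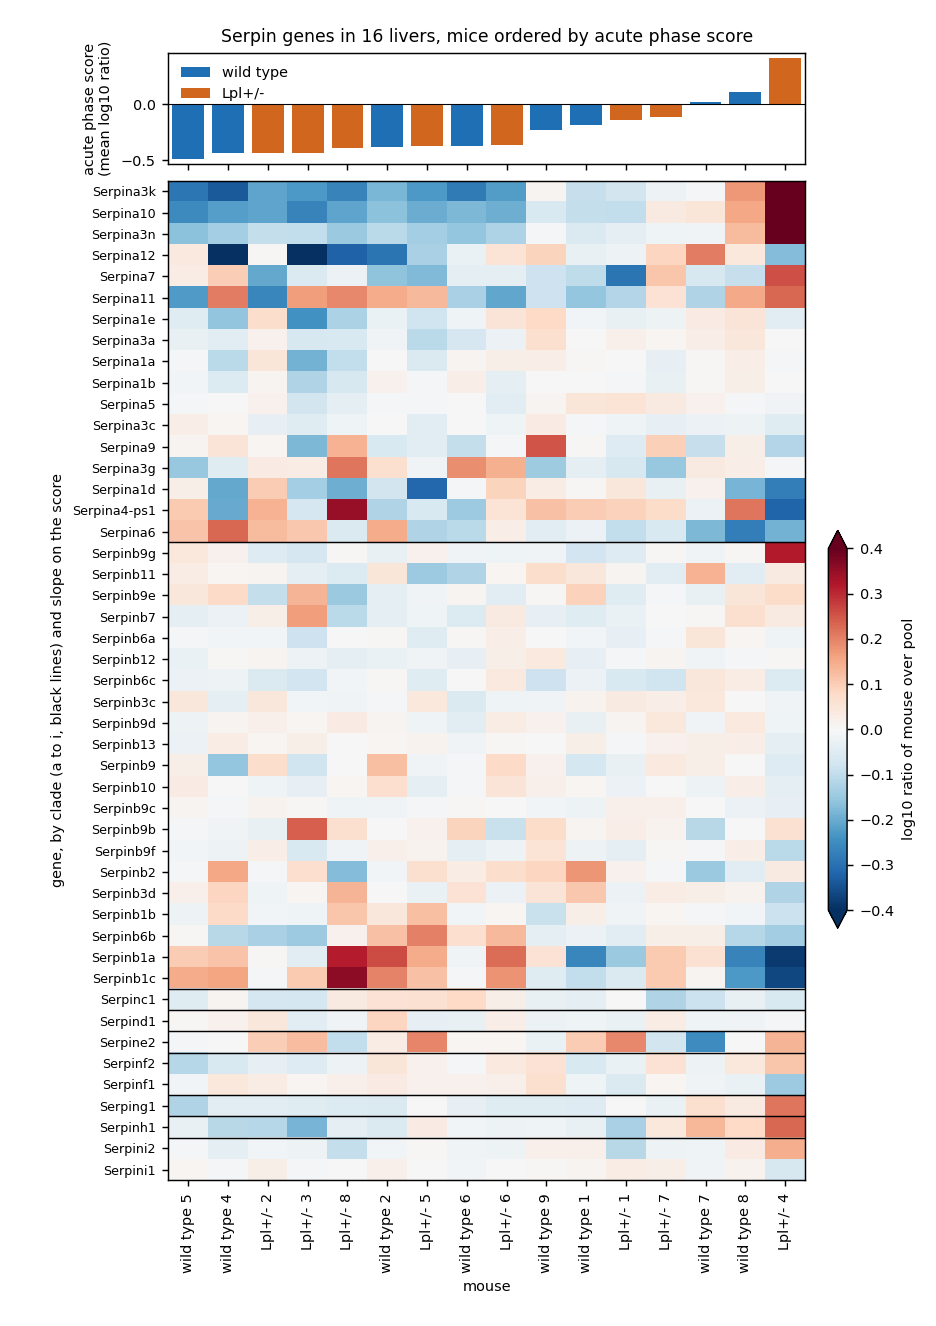
Log10 ratio of mouse over pool for the 47 serpin genes (rows, by clade and by slope on the acute phase score) in the 16 livers (columns, ordered by the score, which is drawn as bars above, blue for wild type and orange for Lpl+/-). Colours run from blue below the pool to red above it. Serpina3k, Serpina10 and Serpina3n turn from blue to red from left to right, Serpinb1a, Serpinb1c and Serpina6 are reddest toward the left, and Lpl+/- 4 at the far right is the reddest column for the first 3.

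No serpin gene passed the test between Lpl+/- and wild type livers. Of 47 genes, 0 passed the threshold of 0.05 on the limma adjusted p, against 6 of all 36824 features (0.0163%). At an unadjusted p under 0.05 there was 1 serpin gene, Serpina3c, against 5.6% of all features. In Lpl+/- livers 20 serpin genes had a higher mean and 27 a lower mean, with a median difference of -0.00321 (0.000531 over all features). The count of called genes was 0 in each of 31 alternatives, among them both turned signs, quantile normalization, each mouse left out and the acute phase score as a further term. The ranges of the groups overlapped in all 47 genes, while 14 of all features had no overlap.

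The largest difference was that of Serpine2, the gene of protease nexin 1, an inhibitor of thrombin and of plasminogen activators. Its log ratio in wild type mice ran from -0.251 through a median of 0.0021 to 0.102, and in Lpl+/- mice from -0.0989 through 0.110 to 0.195. The groups overlapped widely, and the wild type minimum came from 1 mouse, wild type 7. The means were -0.0177 ± 0.102 and 0.0726 ± 0.114 (SD, n = 8 each), a difference of 0.0903 or 1.23-fold that did not pass the test (limma adjusted p = 0.836, exact permutation p = 0.114).

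Serpina3c, one of the mouse antichymotrypsin genes, had the lowest p of the family. Wild type mice lay between -0.0227 and 0.0322 with a median of 0.0002, and Lpl+/- mice between -0.0498 and -0.0169 with a median of -0.0331. All 8 Lpl+/- mice were below the pool. The difference of -0.0350 (limma SE 0.0104) was 0.923-fold, with an exact two-sided permutation p of 0.00155 before any adjustment over genes and a limma adjusted p of 0.836. Over 31 alternatives its difference stayed between -0.0403 and -0.0284 and its limma adjusted p between 0.510 and 0.994.

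The genes of alpha-1-antitrypsin, the main plasma inhibitor of neutrophil elastase, all had lower means in Lpl+/- livers, with 0 of 4 past the threshold. Their differences lay between -0.0407 for Serpina1e and -0.0329 for Serpina1b. Serpina1a was 0.0036, 0.0023, -0.1083, -0.0068, 0.0102, 0.0052, 0.0266 and 0.0266 in wild type mice 1, 2, 4, 5, 6, 7, 8 and 9. In Lpl+/- mice 1 to 8 it was -0.0011, 0.0475, -0.1903, -0.0038, -0.0566, 0.0246, -0.0338 and -0.0975. The lowest 3 values of Serpina1a came from Lpl+/- 3, wild type 4 and Lpl+/- 8, which held more limit values than any other array, and the same 3 arrays gave the lowest 3 values of Serpina1e (-0.241, -0.157 and -0.126) and of Serpina1b (-0.120, -0.0533 and -0.0643, in the same order). Without these arrays the differences were -0.0135 for Serpina1a, -0.0206 for Serpina1b, -0.0178 for Serpina1e and -0.0371 for Serpina1d (limma adjusted p from 0.956 to 0.966). Serpina1d had its lowest value in Lpl+/- 5 (-0.314).

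**Figure D2:**
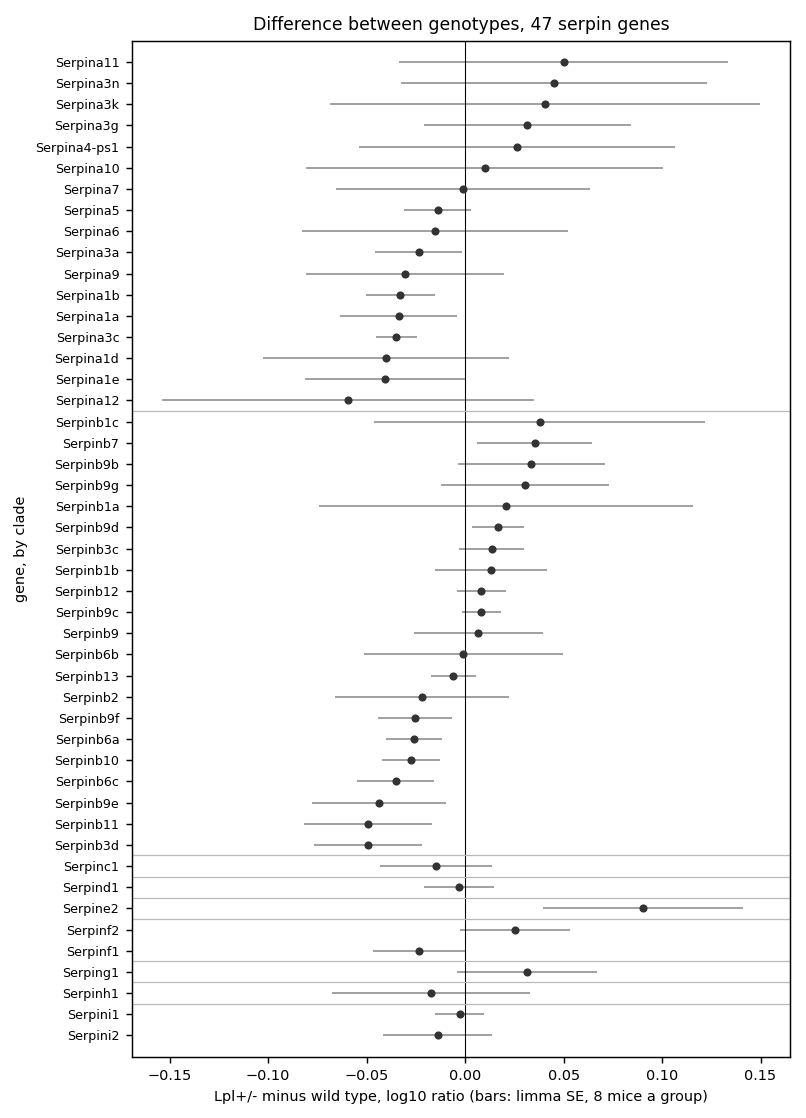
Difference in log10 ratio between 8 Lpl+/- and 8 wild type livers for each of the 47 serpin genes, grouped by clade with grey lines between clades (points, difference of means; bars, limma standard error). The differences run from -0.0596 for Serpina12 to 0.0903 for Serpine2, and 0 of 47 passed the threshold.

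Livers of both genotypes differed in their acute phase genes, and serpin genes were set against that variation. The acute phase score of a mouse is the mean log10 ratio over 22 measured acute phase genes, such as Saa1, Saa2, Saa3 and Orm1, none of them a serpin. It was -0.182, -0.383, -0.434, -0.490, -0.373, 0.022, 0.113 and -0.229 in wild type mice 1, 2, 4, 5, 6, 7, 8 and 9. In Lpl+/- mice 1 to 8 it was -0.144, -0.434, -0.432, 0.415, -0.376, -0.366, -0.115 and -0.392. Thus 13 mice lay below the pool and 3 above it, wild type 7, wild type 8 and, by far the highest, Lpl+/- 4. The group means were close to each other against their spread (-0.245 ± 0.219 in wild type and -0.230 ± 0.289 in Lpl+/-, SD, n = 8 each). A slope below is the change in a gene's log10 ratio per unit of the score within genotype, where 1 unit is a 10-fold change of the acute phase genes on average.

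Of 47 serpin genes, 9 changed with the score (19.1%), 5 higher and 4 lower, against 4.76% of all features (2.61% higher and 2.15% lower). All serpin genes here have a symbol, and among features with a symbol the share called was 6.84% (3.56% higher and 3.28% lower). At an unadjusted p under 0.05 there were 14 serpin genes, or 29.8%, against 18.7% of all features and 21.0% of those with a symbol. Serpina10, Serpina3k, Serpina3n, Serping1 and Serpinh1 rose with the score, and Serpina6, Serpinb1a, Serpinb1c and Serpinf1 fell. With quantile normalization only Serpina10, Serpina3k, Serpina3n and Serping1 were still called, against 2.26% of all features. In clade a, 3 of 17 rose and 1 fell, in clade b, 0 of 21 rose and 2 fell, and in clades c to i, 2 of 9 rose and 1 fell. The median slope over the 47 was -0.00308 (-0.000423 over all features).

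Serpina10, which lies on chromosome 12 among other clade a genes, followed the score most closely. Its log ratio was -0.0938, -0.163, -0.219, -0.253, -0.181, 0.0475, 0.155 and -0.0622 in wild type mice 1, 2, 4, 5, 6, 7, 8 and 9. In Lpl+/- mice 1 to 8 it was -0.0972, -0.210, -0.268, 0.453, -0.199, -0.194, 0.0362 and -0.213. It lay above the pool in 4 mice, which were the 4 with the highest score. The slope was 0.745 (SE 0.0406, limma adjusted p = 6.826e-08), and the score accounted for 96.1% of its variance within genotype. By p, Serpina10 ranked 4 of all 36824 features, a ranking that also holds the genes of the score itself. The slope was 0.630 within wild type mice (limma adjusted p = 0.00310), 0.811 within Lpl+/- mice (limma adjusted p = 0.00221) and 0.648 without Lpl+/- 4 (limma adjusted p = 1.112e-05). Serpina10 was called in 41 of 41 alternatives, with 0.0117 as the highest limma adjusted p.

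The antichymotrypsin genes of the mouse, an expanded family related to human SERPINA3, did not move as 1 group. Serpina3k and Serpina3n rose with the score, while Serpina3a, Serpina3c and Serpina3g did not pass the threshold. Serpina3k was -0.0927, -0.184, -0.336, -0.288, -0.284, -0.0037, 0.172 and 0.0098 in wild type mice 1, 2, 4, 5, 6, 7, 8 and 9. In Lpl+/- mice 1 to 8 it was -0.0734, -0.211, -0.230, 0.577, -0.231, -0.224, -0.0203 and -0.269. Lpl+/- 4 and wild type 8, the mice with the highest scores, were also the highest for Serpina3k. Its slope was 0.882 (SE 0.0666, limma adjusted p = 1.488e-06), the steepest of the family.

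Serpina3n encodes a secreted inhibitor that binds granzyme B and leukocyte elastase in the mouse. It was -0.059, -0.106, -0.135, -0.166, -0.155, -0.0153, 0.127 and -0.0093 in wild type mice 1, 2, 4, 5, 6, 7, 8 and 9. In Lpl+/- mice 1 to 8 it was -0.0372, -0.0954, -0.0994, 0.500, -0.135, -0.125, -0.0175 and -0.150. Only Lpl+/- 4 and wild type 8 lay above the pool. The slope was 0.605 (SE 0.0640, limma adjusted p = 5.379e-05), and 0.389 without Lpl+/- 4 (limma adjusted p = 0.00228), a move of over 1.5 times on 1 mouse. With ranks in place of the score Serpina3n was not called. For Serpina3k the slope without Lpl+/- 4 was 0.729 (limma adjusted p = 4.764e-04).

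Among the other members of the family the slopes were 0.0980 for Serpina3a (limma adjusted p = 0.197), -0.0333 for Serpina3c (limma adjusted p = 0.410) and -0.0696 for Serpina3g (limma adjusted p = 0.790). In GRCm38.p6 gene order Serpina3k and Serpina3n stood 4 places apart.

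Serping1 and Serpinh1 rose with the score outside clade a. Serping1, on chromosome 2, encodes the C1 inhibitor, which controls the first complement proteases and plasma kallikrein. Its wild type values ran from -0.120 through a median of -0.0468 to 0.063, and its Lpl+/- values from -0.055 through -0.033 to 0.214. The 5 mice above the pool included wild type 7, wild type 8 and Lpl+/- 4, and the 2 others, Lpl+/- 1 (0.0022) and Lpl+/- 5 (0.0002), were barely above it. Its slope was 0.266 (SE 0.0342, limma adjusted p = 3.351e-04), 0.195 without Lpl+/- 4 (limma adjusted p = 0.0299), 0.226 within wild type mice (limma adjusted p = 0.103) and 0.289 within Lpl+/- mice (limma adjusted p = 0.0331).

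Serpinh1, on chromosome 7, encodes HSP47, a chaperone that holds collagen in the endoplasmic reticulum and inhibits no protease. In wild type mice it ran from -0.109 through a median of -0.0237 to 0.134, and in Lpl+/- mice from -0.187 through -0.0289 to 0.231. Wild type 7, wild type 8 and Lpl+/- 4 were the 3 highest. The slope of 0.334 (SE 0.0656, limma adjusted p = 0.00797) was no longer called without Lpl+/- 4 (0.270, limma adjusted p = 0.162).

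The sequences before the transcription start are shown for Serpina3n, Serpinh1, Serpinf1 and Serpinb1c, the members that rose or fell with the score and are held in the RefSeq promoter table of GRCm38.p6. Each is the 250 bases before the start, on the strand of the gene, at chr12:104406458-104406707 (plus strand), chr7:99353240-99353489 (minus strand), chr11:75422624-75422873 (minus strand) and chr13:32940601-32940850 (minus strand). Capitals mark matches on either strand to GGGA, then 4 bases of any kind, then CC, a simple form of the motif of NF-kappaB, a factor activated by inflammatory signals.
Serpina3n: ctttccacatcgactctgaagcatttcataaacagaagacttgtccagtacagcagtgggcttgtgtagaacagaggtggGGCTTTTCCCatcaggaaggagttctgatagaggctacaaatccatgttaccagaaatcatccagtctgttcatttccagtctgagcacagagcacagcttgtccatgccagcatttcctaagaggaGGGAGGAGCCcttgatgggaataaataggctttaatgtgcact
Serpinh1: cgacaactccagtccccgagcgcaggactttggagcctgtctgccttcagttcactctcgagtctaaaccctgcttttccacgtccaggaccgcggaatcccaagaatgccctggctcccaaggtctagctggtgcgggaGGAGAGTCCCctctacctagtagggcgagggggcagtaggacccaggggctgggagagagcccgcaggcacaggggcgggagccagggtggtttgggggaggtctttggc
Serpinf1: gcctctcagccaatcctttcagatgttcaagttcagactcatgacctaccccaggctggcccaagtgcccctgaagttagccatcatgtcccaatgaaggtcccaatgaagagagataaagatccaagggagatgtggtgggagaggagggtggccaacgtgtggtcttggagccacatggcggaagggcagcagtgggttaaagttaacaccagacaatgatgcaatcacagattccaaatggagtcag
Serpinb1c: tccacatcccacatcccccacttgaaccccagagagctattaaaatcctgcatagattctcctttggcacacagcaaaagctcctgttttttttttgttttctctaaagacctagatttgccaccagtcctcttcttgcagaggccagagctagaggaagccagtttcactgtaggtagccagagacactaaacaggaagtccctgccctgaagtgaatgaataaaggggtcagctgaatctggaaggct

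Serpina3n held matches that begin at positions -170 and -43 from the start, Serpinh1 held 1 at -110, and Serpinf1 and Serpinb1c, which fell with the score, held none. The motif was present in 17.6% of 32851 such windows, so a match is common. Of 47 serpin genes 39 were in the table, and of the 9 that changed with the score 4 were, Serpina3n, Serpinh1, Serpinf1 and Serpinb1c. The motif occurred in 5 of the 39, Serpina12, Serpina3n, Serpinb9g, Serpinh1 and Serpini1. TTCNNNGAA, a form of the STAT motif, occurred in 5 of the 39 and in 0 of these 4 (7.02% of all windows). TTGCNNAA, a form of the C/EBP motif, occurred in 9 of the 39 and in 0 of these 4 (9.56% of all windows). GAANNTTC, the core of the heat shock element, occurred in 2 of the 39, Serpina3c and Serpina5, and not in Serpinh1 (6.69% of all windows). These matches are a description of letters in these windows.

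Serpina6, the gene of corticosteroid-binding globulin, fell with the score. It was -0.0242, 0.148, 0.229, 0.115, -0.109, -0.178, -0.275 and -0.0464 in wild type mice 1, 2, 4, 5, 6, 7, 8 and 9. In Lpl+/- mice 1 to 8 it was -0.0981, 0.125, 0.109, -0.188, -0.120, 0.0253, -0.0599 and -0.0565. The 3 mice with the highest score, wild type 7, wild type 8 and Lpl+/- 4, had its 3 lowest values. The slope of -0.421 (SE 0.0970, limma adjusted p = 0.0209) was steeper without Lpl+/- 4 (-0.616, limma adjusted p = 0.0214). It was no longer called without wild type 8, or with the sign of wild type 5 (limma adjusted p = 0.0696) or wild type 8 (limma adjusted p = 0.291) turned. Over 41 alternatives it was called in 30, and not with quantile normalization or within either genotype alone. Serpina6 stood 2 places from Serpina10 in gene order, and these neighbours ran in opposite directions along the score. Serpina7, the gene of thyroxine-binding globulin on chromosome X, had a slope of 0.201 (limma adjusted p = 0.434).

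Serpinb1a and Serpinb1c, paralogs 3 places apart on chromosome 13, fell with the score and also varied with a similar pattern between mice. Serpinb1a ran from -0.267 through a median of 0.0598 to 0.261 in wild type mice and from -0.382 through 0.055 to 0.315 in Lpl+/- mice. Serpinb1c ran from -0.230 through 0.0021 to 0.197 in wild type mice and from -0.363 through 0.104 to 0.357 in Lpl+/- mice. Lpl+/- 4 and wild type 8 were the lowest mice and Lpl+/- 8 and wild type 2 the highest for both genes. The slopes were -0.562 (SE 0.145, limma adjusted p = 0.0370) for Serpinb1a and -0.570 (SE 0.106, limma adjusted p = 0.00575) for Serpinb1c. Serpinb1b, the remaining paralog, had a slope of -0.116 (limma adjusted p = 0.260). Without Lpl+/- 4 neither Serpinb1a (-0.484, limma adjusted p = 0.281) nor Serpinb1c (-0.489, limma adjusted p = 0.119) was called, and Serpinb1a was called in 19 of 41 alternatives.

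Serpinf1 encodes pigment epithelium-derived factor, a secreted serpin that inhibits no protease and is known as an inhibitor of vessel growth. It ran from -0.0279 through a median of 0.0031 to 0.0656 in wild type mice and from -0.147 through 0.0124 to 0.0297 in Lpl+/- mice. The lowest value was that of Lpl+/- 4, and the next mouse stood at -0.0566. The slope of -0.153 (SE 0.0323, limma adjusted p = 0.0130) was -0.0943 without Lpl+/- 4 (limma adjusted p = 0.296). Serpinf1 was thus not called without that mouse.

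**Figure D3:**
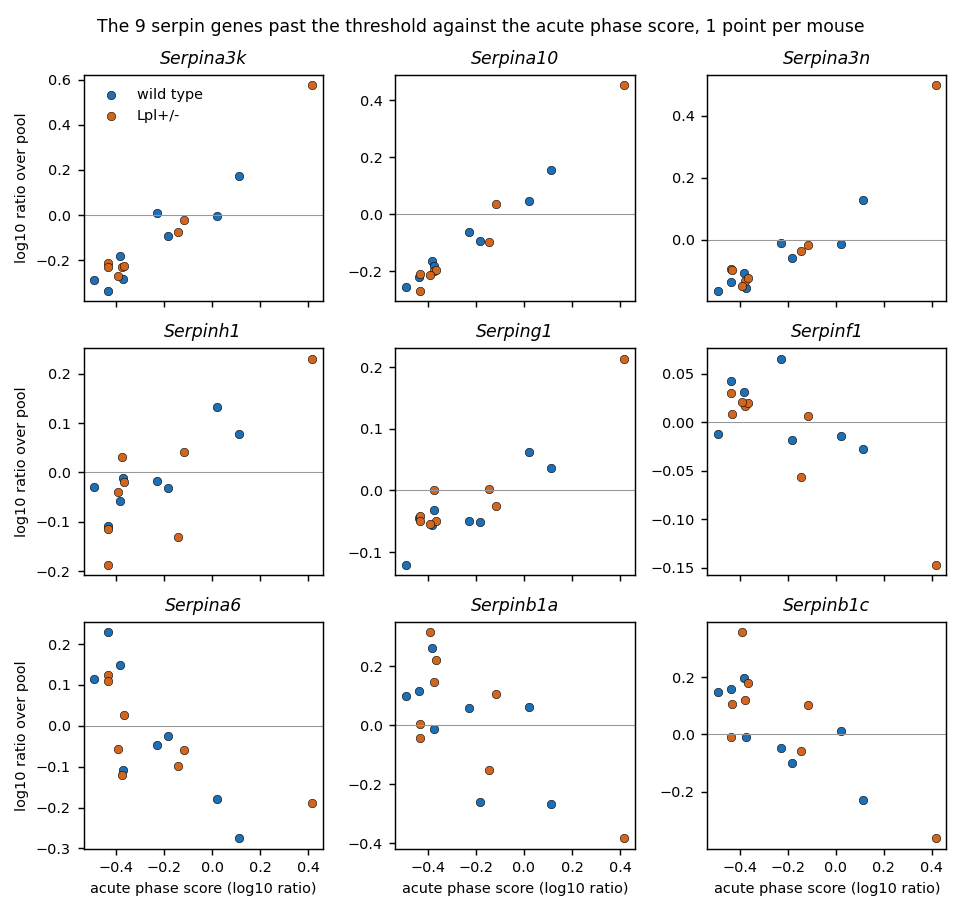
Log10 ratio over the pool of the 9 serpin genes past the threshold (vertical axis, 1 panel per gene with its own scale) against the acute phase score (horizontal axis, mean log10 ratio), 1 point per mouse, blue for wild type and orange for Lpl+/-. Serpina3k, Serpina10 and Serpina3n are higher at higher scores, Serpina6, Serpinb1a, Serpinb1c and Serpinf1 lower, and Lpl+/- 4, at a score of 0.415, has the highest value of the genes that rise and the lowest of Serpinb1a, Serpinb1c and Serpinf1.

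The remaining 38 serpin genes did not pass the threshold, with slopes between -0.145 and 0.259. They included the 4 alpha-1-antitrypsin genes, with slopes from -0.134 for Serpina1d to 0.112 for Serpina1e (lowest limma adjusted p = 0.440). Among inhibitors of clotting and fibrinolysis, Serpinc1, the gene of antithrombin, had a slope of -0.0954 (limma adjusted p = 0.390). Serpind1, the gene of heparin cofactor II, had -0.0252 (limma adjusted p = 0.773), and Serpina5, the gene of protein C inhibitor, had 0.0357 (limma adjusted p = 0.634). Serpinf2, the gene of alpha-2-antiplasmin, had 0.139 (limma adjusted p = 0.121). Serpine2 had -0.0279 (limma adjusted p = 0.923). With Serpina10 and Serping1, which rose, these are the 7 measured members of this class. Thus 2 of 7 rose, against 2.61% of all features and 3.56% of those with a symbol.

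Other genes of clade a with a wide spread between mice did not follow the score. Serpina12 had a slope of 0.259 (limma adjusted p = 0.509) and Serpina11 one of 0.181 (limma adjusted p = 0.628), with 10.7% and 6.6% of their variance within genotype. The pseudogene Serpina4-ps1 had a slope of -0.145 (limma adjusted p = 0.701). In clade b, Serpinb9g had a slope of 0.227 (limma adjusted p = 0.0829), with Lpl+/- 4 far above the other mice (0.317, next mouse 0.0411), and -0.0232 without that mouse (limma adjusted p = 0.884). Serpinb9, the gene of the inhibitor of granzyme B, had a slope of -0.0292 (limma adjusted p = 0.867), and Serpinb6a, an intracellular inhibitor, one of 0.0286 (limma adjusted p = 0.657).

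Whether the slopes differed between genotypes was tested directly. For the interaction of genotype and score, 0 of 47 serpin genes and 0 of all 36824 features (0.0%) passed the limma test, with 8 serpin genes (17.0%) and 8.12% of all features at an unadjusted p under 0.05. Without Lpl+/- 4 the 8 became 1 (1.44% of all features at that p), and with the replicate block 1 (3.65%). The slope was higher in Lpl+/- mice by 0.425 for Serpinb9g (limma adjusted p = 0.374), by 0.300 for Serpina3n (limma adjusted p = 0.506), by 0.584 for Serpina7 (limma adjusted p = 0.520), by 0.181 for Serpina10 (limma adjusted p = 0.532) and by 0.402 for Serpina6 (limma adjusted p = 0.593). Serpina6 fell with the score, so its higher slope is a less steep fall in Lpl+/- mice. The other 3 of the 8 had a lower slope in Lpl+/- mice, with interactions of -0.822 for Serpina4-ps1 (limma adjusted p = 0.473), -0.114 for Serpinb13 (limma adjusted p = 0.479) and -0.156 for Serpinb9f (limma adjusted p = 0.594). Lpl+/- 4, with the highest score, is 1 of the 8 mice behind each Lpl+/- slope.

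Within 1 genotype fewer genes passed. In wild type mice alone 3 serpin genes were called (Serpina10, Serpina3k and Serpina3n) against 1.22% of all features, and in Lpl+/- mice alone 5 (the same 3, Serping1 and Serpinf1) against 0.885%. Without Lpl+/- 4 there were 5 (the 3, Serping1 and Serpina6) against 2.89%. Without the 2 mice farthest from the median score, Lpl+/- 4 and wild type 8, 3 were called (Serpina10, Serpina3k and Serpina3n) against 0.345%. Without the 3 mice with the highest score 1 was called, Serpina10 (slope 0.656, limma adjusted p = 0.00816), against 0.0407%. There the slope of Serpina3k was 0.780 (limma adjusted p = 0.0746) and that of Serpina3n 0.364 (limma adjusted p = 0.240). With the signs of both wild type 5 and wild type 8 turned, in the score as well, 4 were called (Serpina10, Serpina3k, Serpina3n and Serping1) against 1.7% of all features. With the sign of wild type 5 turned 6 were called against 3.49%, and with that of wild type 8 turned 6 against 1.78%. The sign of the slope was the same in all 41 alternatives for each of the 9 genes. This agreement is in part built in. Other filters of features and another variance model cannot change a slope, and a turned array turns gene and score together.

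**Figure D4:**
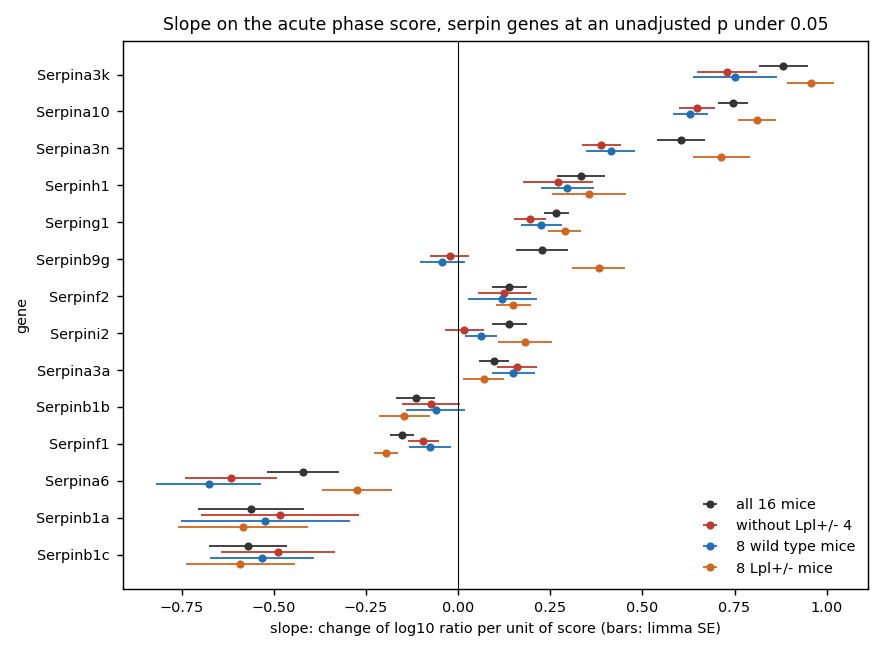
Slope of log10 ratio per unit of the acute phase score (horizontal axis; bars, limma standard error) for the serpin genes at an unadjusted p under 0.05, in all 16 mice (black), without Lpl+/- 4 (red), in 8 wild type mice (blue) and in 8 Lpl+/- mice (orange). Serpina3k, Serpina10 and Serpina3n lie above 0 in each fit, and the slope of Serpinb9g moves from 0.227 to -0.0232 without Lpl+/- 4.

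Some genes of other groups also moved with the same score, on which 4.76% of all features and 6.84% of those with a symbol were called. Of the 22 genes of the score 20 rose with it, which is in part built in. Of 6 negative acute phase genes, whose plasma proteins fall in inflammation, 2 fell, Alb (slope -0.708, limma adjusted p = 0.00902) and Ttr (slope -0.120, limma adjusted p = 0.0379). Alb was by far the lowest in Lpl+/- 4 (-0.701) and wild type 8 (-0.449), and its slope without these mice is not given here. The others did not pass the threshold, with slopes from -0.153 for Rbp4 to 0.229 for Trf. Of 12 matrix genes 4 rose (Col1a1, Col1a2, Col3a1 and Col4a1). Of 9 neutrophil genes 2 rose, S100a8 (slope 0.642) and S100a9 (slope 0.725), while the granule genes Ngp, Camp, Ltf, Elane and Mpo did not pass the threshold. The mean log ratio over the 9 neutrophil genes lay between -0.0731 and 0.0569 in wild type and between -0.0925 and 0.095 in Lpl+/- mice, highest in Lpl+/- 4. Of 7 heat shock genes 2 rose, Hspb1 (slope 0.440, limma adjusted p = 0.0107) and Hsp90aa1 (slope 0.463, limma adjusted p = 0.00257). The mean log ratio over 5 hepatocyte genes lay between -0.107 and 0.0482 in wild type and between -0.298 and 0.0539 in Lpl+/- mice, by far the lowest in Lpl+/- 4 (next mouse -0.110), and 2 of the 5, Alb and Ttr, fell with the score. Of 4 platelet genes 1 rose (Pf4), and of 7 macrophage and 6 pancreas acinar genes 0 passed the threshold. Their part in the serpin slopes was not tested, and for the matrix genes a fit with both scores is given below.

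A score over the matrix genes ran with the acute phase score over the 16 mice (r = 0.792, a description of livers that fall unevenly along both). On the matrix score 6 serpin genes changed, 5 higher and 1 lower, against 4.41% of all features. They were Serpina10, Serpinh1, Serpina3k, Serpina3n and Serping1, which rose, and Serpina6, which fell. Serpinh1, whose product binds collagen, had a slope of 1.80 on the matrix score (limma adjusted p = 0.00969). With both scores in the fit, 0 serpin genes and 0 of all features (0.0%) were called by limma on the matrix score, and 3 serpin genes (Serpina10, Serpina3k and Serpina3n) were called on the acute phase score against 0.285% of all features. In that fit the acute phase slope of Serpinh1 was 0.156 (limma adjusted p = 0.583). The matrix genes themselves were among the features not called on the matrix score there. With scores that run together so closely, this fit cannot tell their parts in the serpin slopes apart.

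On a score of clock genes (Arntl, Npas2 and Clock against Dbp, Tef, Per2, Per3 and Nr1d1), 0 of 47 serpin genes were called by limma against 0.921% of all features, with 4 serpin genes (8.51%) and 9.77% of all features at an unadjusted p under 0.05. Without Lpl+/- 4, 1 serpin gene was called, Serpinh1, with a slope of 0.225 (limma adjusted p = 0.0152), against 0.249 in all mice (limma adjusted p = 0.146) and 0.961% of all features. Serpina6 had a slope of -0.334 on the clock score (limma adjusted p = 0.147). On a score of heat shock genes 0 serpin genes were called by limma against 0.00272% of all features, with 14 serpin genes (29.8%) and 16.8% of all features at an unadjusted p under 0.05. Serpinh1, itself a heat shock protein, had a slope of 1.68 on that score (limma adjusted p = 0.158).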

How the data were processed

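Liver RNA of 16 mice was compared with 1 wild type pool on 2-colour arrays. Per the labels, channels were Cy3 and Cy5, and per the design text dyes were swapped. How the authors joined swapped hybridizations, the scanner, background correction and normalization are not given in the sources used here. Values as deposited were taken as log10 ratios, since they end at exactly 2 and -2, a 100-fold limit in that base. The log base, scale and centring are not stated, the direction (mouse over pool) is likely, and folds rest on both. Values were used as deposited, with 0 missing.

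Of 39556 probes, 23283 had 1 gene symbol, 0 several and 16273 none. Probes of a symbol were averaged, giving 36824 features, and 5534 symbols were updated through the RefSeq table of GRCm38.p6 to find the genes of other lists. All 47 members had current symbols. The fits used limma 3.58.1 in R 4.3.3 (lmFit and eBayes, two-sided, Benjamini-Hochberg over all features, threshold 0.05) and were tested on simulated data. They had a genotype term and, for slopes, a score. Single genes were also tested with an exact permutation test over 12870 assignments, whose smallest p is 0.0001554. The mice are separate animals, and 8 a group limits the precision.

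The members, lists and tests were chosen with earlier results of these data known. Serpin genes were named where the product is a plasma or liver inhibitor or carrier, where a gene passed a threshold, or where its p or SD ranked among the first 3. Fits without the mice with extreme scores, with both signs turned and with a further score were added after the data were seen. Other alternatives changed the centring or normalization, the probes and filters used, how variance was modelled, the make-up of the score and the mice included. Promoter sequences are those of RefSeq, and proteins were not used here.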

Additional observations from a re-analysis of the deposited data

Results flagged for a closer look

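In 94 groups of 8 mice, both genotypes for each of the 47 serpin genes, 15 had 1 mouse far outside the range of the rest. Chance gives about 4.7 at 1 in 20, but genes that move together in 1 mouse are not separate cases. Of the 15, 7 were Lpl+/- 4, the mouse with the highest acute phase score. It was the highest of the Lpl+/- mice for Serpina10 (0.453, next 0.0362), Serpina3k (0.577, next -0.0203), Serpina3n (0.500, next -0.0175), Serping1 (0.214, next 0.0022), Serpinb9g (0.317, next 0.0168) and Serpini2, a gene known from the pancreas (0.147, next 0.0047), and the lowest for Serpini1, the gene of neuroserpin (-0.0654, next -0.0092).

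In the other 8 cases a different mouse stood apart. Among wild type mice these were wild type 4 for Serpina1a (-0.108, next -0.0068), wild type 1 for Serpina5 (0.0485, next 0.0158), wild type 9 for Serpina9 (0.252, next 0.0501), wild type 7 for Serpinb6a (0.0483, next 0.0073) and for Serpine2 (-0.251, next -0.0271), and wild type 2 for Serpind1 (0.0855, next 0.0165). Among Lpl+/- mice they were Lpl+/- 8 for Serpinb2 (-0.173, next -0.009) and Lpl+/- 3 for Serpinb9b (0.240, next 0.0647). Wild type 4, Lpl+/- 3 and Lpl+/- 8 had more values at the limit of the scale than any other array.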

How the results depend on the processing

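The counts of serpin genes called between genotypes, for the interaction and on the heat shock score stayed at 0 in every alternative run. Of the 9 called on the acute phase score, 4 were called with quantile normalization (2.26% of all features, against 4.76%) and 4 with both signs turned (1.7%). Both times these were Serpina10, Serpina3k, Serpina3n and Serping1, and 0 of the genes that fell were called. With ranks of the score 3 were called, Serpina10, Serpina3k and Serpina6 (1.48%). In wild type mice alone 3 were called, and in Lpl+/- mice alone 5. Without the 2 mice farthest from the median score there were 3, without the 3 highest 1, and with the matrix score as a further term 3. The count was 5 to 10 when any 1 mouse was left out, lowest without Lpl+/- 4. On the clock score it was 0 to 1. On the matrix score, 6 became 3 with quantile normalization (3.09% of all features, against 4.41%) or the sign of wild type 8 turned (3.07%), 0 with the acute phase score added, and 3 to 7 when 1 mouse was left out, with 3 without wild type 4, wild type 5, wild type 8, wild type 9, Lpl+/- 3, Lpl+/- 4 or Lpl+/- 6. The cause was not tested. Over 3372 values of single genes, 0 called values reversed, 73 calls were lost and 4 gained. Some alternatives, such as other filters of features, cannot reverse a value. Replicate numbers 1, 2 and 4 to 8 occur in both groups, but the labels do not say that they pair mice. The correlation of deviations lay between -0.245 and 0.381, and 2 of the 14 mice correlated best with their own number. With the replicate block 7 serpin genes were called on the acute phase score (2.01% of all features; 9 and 4.04% in the same 14 arrays without it), 0 on the matrix score (0.00272%; 2 and 0.883% without it) and 0 between genotypes. Signal over background was not used here, so its limit on weak probes is not known.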
